A study of Mus musculus with 4 samples.

Results

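The genes described here handle iron and heme in mouse bone-marrow-derived macrophages: they store iron, move it across membranes, sense it, or release it from heme. The set has 10 members, chosen by symbol for these roles, out of 55536 annotated genes. The members are Fth1, Ftl1 and Ncoa4 for storage, Tfrc, Slc11a1, Slc11a2 and Slc40a1 for transport, Aco1 and Ireb2 for sensing, and Hmox1 for heme breakdown. All 10 were detected in every library.

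The study measured polyA-selected RNA by sequencing in macrophages grown from C57BL/6J bone marrow, in 1 group of 4 biological replicates. Per the labels, cells received lipid A at 100 ng/ml for 12 h, were kept without it for 12 h and were collected at 0 min of a second stimulation; other label fields call the first agent lipoprotein A. Every library shares this history, and no untreated cells are part of the series, so a level below is the state of pretreated cells and not an effect of the pretreatment. The replicates carry 1 donor identifier, and p-values over them measure only the spread between these libraries, which may be technical.

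Macrophages take up aged red cells, release iron from their heme, and either store that iron or return it to plasma. Ferritin, a shell of heavy and light chains, stores iron, and ferroportin is the known route by which iron leaves the cell. Iron regulatory proteins bind hairpins called iron-responsive elements: binding in a 5′ UTR blocks translation, and binding in a 3′ UTR can protect the messenger from decay. In infection and inflammation macrophages are known for holding iron back from microbes.

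Replicates 1 and 2 stood apart from replicates 3 and 4 in ways that the labels do not explain. The deposited notes list 6 read files for each of replicates 1 and 2 and 4 for each of replicates 3 and 4. Expected gene counts totalled 25594340 and 27384162 in replicates 1 and 2, against 48875472 and 57126810 in replicates 3 and 4. Mitochondrial genes held 0.778% and 1.16% of those counts in replicates 1 and 2, against 3.34% and 3.00% in replicates 3 and 4. The libraries were therefore also set against each other in pairs, as a comparison of libraries and not of conditions. The means of the 6 macrophage markers examined ran from 100.3 ± 30.0 TPM for Mertk to 9726.3 ± 1479.4 TPM for Lyz2 (SD, n = 4). Mertk passed 100 TPM in replicate 3 only, at 143.9 TPM. Adgre1 (F4/80) averaged 1820.3 ± 155.0 TPM (SD, n = 4). Cd68 had 2316.3 and 2487.3 TPM in replicates 1 and 2, against 4003.6 and 4504.4 TPM in replicates 3 and 4. By edgeR's count test 3 of the 6 leaned higher in replicates 1 and 2, and 0 were called. Erythroid markers added up to 0.820, 0.330, 1.23 and 0.410 TPM in replicates 1 to 4, with Hbb-bs, Hbb-bt and Alas2 at 0 in all 4.

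The hairpins that tie several of these messengers to iron were looked for in the annotated transcripts, on the transcript strand only, as a C, any 5 bases, the loop CAGTGN and any 5 bases, with the bases before the loop able to pair with those after it (G with T allowed). With no mispair, 4 of 10 members held a match, as did 1.34% of the 21901 protein-coding genes. The sites are shown because the RNA levels below are those of messengers that carry them. Each is 30 bases of the mm10 assembly, 5′ to 3′ on the strand of the gene, and capitals mark the bulged C and the loop.
Fth1 5′ UTR: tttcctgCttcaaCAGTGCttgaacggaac
Ftl1 5′ UTR: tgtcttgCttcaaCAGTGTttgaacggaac
Slc40a1 5′ UTR: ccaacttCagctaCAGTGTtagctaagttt
Tfrc 3′ UTR, site 1: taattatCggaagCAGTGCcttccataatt
Tfrc 3′ UTR, site 2: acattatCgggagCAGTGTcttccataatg
Tfrc 3′ UTR, site 3: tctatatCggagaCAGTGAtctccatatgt
Tfrc 3′ UTR, site 4: taattatCgggaaCAGTGTttcccataatt
Slc11a2-205 3′ UTR: gagccatCagagcCAGTGTgtttctatggt
The Fth1 site lies at chr19:9982731-9982760 on the plus strand and the Ftl1 site at chr7:45459779-45459808 on the minus strand. The Slc40a1 site lies at chr1:45925465-45925494 on the minus strand. The 4 Tfrc sites lie on the plus strand of chromosome 16, at chr16:32631218-32631247, chr16:32631597-32631626, chr16:32631662-32631691 and chr16:32631709-32631738. The Slc11a2 site, at chr15:100395153-100395182 on the minus strand, was found only when 1 mispair was allowed, a search added after the data were seen. That search matched 6 of 10 members and 10.7% of protein-coding genes, and it also matched a stretch in the coding sequence of Slc11a1 that is not shown. A match is a spelling in a transcript, and no binding was measured.

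By mean TPM (a level scaled by transcript length and library size), the 10 members fell into steps. Ferritin heavy chain came first, followed by ferritin light chain, then Slc11a1 and Hmox1, then Ncoa4, Slc11a2 with Tfrc, Slc40a1, and Aco1 with Ireb2. In the first quantification, neighbours in that order had ranges that did not overlap, except in 3 pairs. Slc11a1 and Hmox1 overlapped, and Slc11a1 was higher within 4 of 4 libraries over all transcripts. Over protein-coding transcripts alone the order turned, with Slc11a1 at 267.5 TPM and Hmox1 at 463.2 TPM on average and Hmox1 higher in every library. In the second quantification of the same reads Slc11a1 averaged 436.9 TPM and Hmox1 385.5 TPM over all transcripts. Hmox1 was the higher there in replicate 4 only, at 402.4 TPM against 394.1 TPM of Slc11a1. Slc11a2 was above Tfrc in 3 of 4 libraries, and Aco1 was above Ireb2 in 2 of 4. The second quantification gave the same order of means, and Slc11a2 and Tfrc did not overlap there. Other ranges did overlap in it: those of Hmox1 and Ncoa4, of Tfrc and Slc40a1, and of Slc40a1 and Aco1. In these pairs the first gene was still the higher within every library. In RNA of a whole culture, fewer cells that express a gene and less RNA per cell cannot be told apart.

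**Figure D1:**
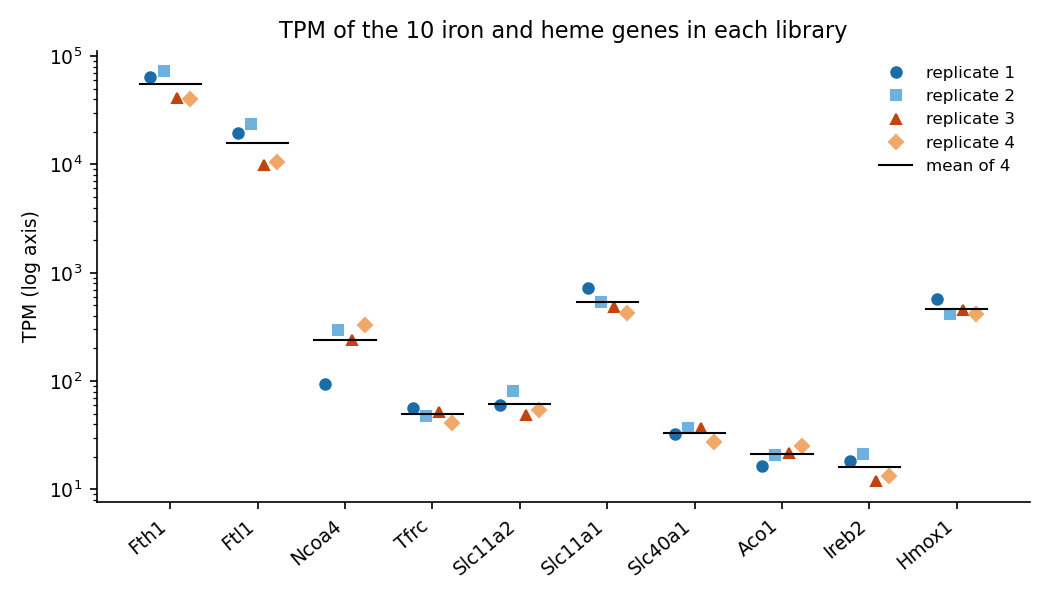
TPM on a log axis of each of the 10 genes, ordered by role, with 1 point per replicate and a bar at the mean of the 4 libraries. Ferritin heavy and light chain lie far above the other 8 genes, and replicate 1 of Ncoa4, at 94.8 TPM, lies well below the other 3 points of that gene.

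Ferritin RNA made up a large part of these transcriptomes. Fth1, the heavy chain that oxidises iron for storage, had 64625.0 and 72527.1 TPM in replicates 1 and 2, against 41436.2 and 40556.0 TPM in replicates 3 and 4. It ranked 1 or 2 among all genes in each library. Ftl1, the light chain that helps the mineral core form, had 19539.2 and 23853.1 TPM in replicates 1 and 2, against 9794.5 and 10570.5 TPM in replicates 3 and 4, and it ranked 5 among all genes by its mean. Together the pair held 8.42% and 9.64% of all TPM in replicates 1 and 2, against 5.12% and 5.11% in replicates 3 and 4. Within the 10 members the pair held between 97.4% and 98.5% of the TPM. For both chains replicates 1 and 2 were the high libraries, with no overlap. In TPM the split was narrower in the second quantification, again with no overlap. Fth1 there had 46270.1 and 51778.2 TPM in replicates 1 and 2, against 38625.6 and 38021.1 TPM in replicates 3 and 4. Ftl1 there had 13919.5 and 17084.0 TPM in replicates 1 and 2, against 9217.7 and 10000.6 TPM in replicates 3 and 4. Genes of at least 10 TPM in general had lower TPM there in replicates 1 and 2. Their median ratio to the first quantification was 0.759 and 0.775, against 1.01 in replicates 3 and 4. From counts scaled over all genes in edgeR, the log2 fold between the pairs of libraries was not smaller. For Fth1 it was 0.74 in the first quantification and 0.76 in the second, and for Ftl1 1.08 and 1.11.

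Heavy chain RNA exceeded light chain RNA in every library. The ratio of Fth1 to Ftl1 TPM was 3.31 and 3.04 in replicates 1 and 2, against 4.23 and 3.84 in replicates 3 and 4. On the log2 scale with 1 TPM added, the ratio averaged 1.84 ± 0.21 (SD, n = 4). An exact two-sided sign-flip permutation test gave p = 0.12, the smallest value that 4 libraries allow, so no pair here could reach 0.05. The 8 pairs examined had Benjamini-Hochberg adjusted values of 0.143, except Aco1 over Ireb2.

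One annotated transcript carried nearly all of each chain: Fth1-201 held 99.2% ± 0.11 of Fth1 TPM and Ftl1-201 held 99.0% ± 0.49 of Ftl1 TPM (SD, n = 4). Transcripts with the hairpin printed above held at least 99.3% of Fth1 TPM and at least 99.8% of Ftl1 TPM in each library. Ferritin genes have many copies in the genome, so reads can be shared between rows. Of 14 other ferritin rows, 11 were at 0 TPM in all 4 libraries. Ftl1-ps1 had 345.1 and 437.7 TPM in replicates 1 and 2, against 71.2 and 71.5 TPM in replicates 3 and 4, between 0.676% and 1.84% of Ftl1. In the second quantification Ftl1-ps1 had 26.8, 29.7, 2.89 and 3.06 TPM in replicates 1 to 4, so its level is uncertain. Ftl2-ps reached 1.06 TPM in replicate 1 and stayed below 1 TPM in the other replicates. Gm10252, an unclassified gene on the opposite strand of the Ftl1 locus, had 38.7 and 43.6 TPM in replicates 1 and 2, against 9.79 and 7.75 TPM in replicates 3 and 4. The sources used here do not state whether counting used the strand, and those reads cannot be told apart from Ftl1 reads.

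Ncoa4, the receptor that delivers ferritin to autophagy so that its iron is freed, was the most uneven member. It had 94.8 and 297.0 TPM in replicates 1 and 2, against 240.0 and 332.8 TPM in replicates 3 and 4. Replicate 1 alone was low, at 3847 expected counts, and the mean of the other 3 libraries was 3.06 times its value. The highest library was 3.51 times the lowest, a larger spread than in 96.8% of the 6015 genes with at least 10 TPM in every library. Without replicate 1 that spread was 1.39. Ribosomal RNA genes held 8.65% and 1.17% of TPM in replicates 1 and 2, against 0.627% and 0.667% in replicates 3 and 4. With mitochondrial and ribosomal RNA genes left out of the scaling, Ncoa4 had 105.9 and 308.5 TPM in replicates 1 and 2. It had 262.7 and 368.2 TPM in replicates 3 and 4, and replicate 1 was again the lowest. That rescaling changes all remaining genes of a library by the same factor. The part of library quality in this drop was not tested. The second quantification also placed replicate 1 low, at 79.1 TPM, with 234.8 TPM in replicate 2 and 243.6 and 335.7 TPM in replicates 3 and 4. Fth1 RNA was 681.4 and 244.2 times Ncoa4 RNA in replicates 1 and 2, against 172.6 and 121.9 times in replicates 3 and 4. Ncoa4-201, a coding transcript of 3343 bases, held 52.2% to 65.5% of Ncoa4 TPM, and Ncoa4-203, an annotated fragment of 462 bases, held 20.5% to 28.2%. That fragment took at most 2.63% of the gene's counts, since TPM divides counts by length.

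Among the transporters, the phagosomal pump stood above the other 3. Slc11a1 (NRAMP1), which moves iron and manganese out of the phagosome, had 717.9 and 532.8 TPM in replicates 1 and 2, against 480.9 and 422.4 TPM in replicates 3 and 4. Slc11a2 (DMT1), its relative that brings divalent metals across endosomal and surface membranes, had 59.7 and 81.2 TPM in replicates 1 and 2, against 48.8 and 53.8 TPM in replicates 3 and 4. For both genes the ranges of the 2 pairs of libraries did not overlap, and replicates 1 and 2 were higher. In the second quantification both overlapped, with 505.1 and 403.0 TPM of Slc11a1 in replicates 1 and 2, against 445.3 and 394.1 TPM in replicates 3 and 4. Slc11a2 there had 54.6 and 73.8 TPM in replicates 1 and 2, against 52.7 and 56.6 TPM in replicates 3 and 4. From counts scaled over all genes in edgeR, the log2 fold between the pairs of libraries was alike in both quantifications. For Slc11a1 it was 0.39 in the first and 0.42 in the second, and for Slc11a2 0.57 in each, none of them called. Slc11a1 was 12.0, 6.56, 9.85 and 7.85 times Slc11a2 in replicates 1 to 4, a mean log2 ratio of 3.12 ± 0.38 (SD, n = 4; exact sign-flip permutation p = 0.12).

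The size of that gap depends on which transcripts are counted. Slc11a1-206, a noncoding fragment of 378 bases, took 37.6% to 44.5% of Slc11a1 TPM but only 4.13% to 5.64% of its counts. The full-length coding Slc11a1-201 took 45.1% to 53.0% of the TPM and 85.9% to 89.9% of the counts. Over Slc11a1-201 alone, a measure added after the data were seen, the mean level was 266.1 TPM, against 538.5 TPM for the whole gene, and this remained above every other transporter.

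Slc11a2 was spread mainly over 2 coding forms. Slc11a2-205, the form with the hairpin in its 3′ UTR, had 15.6 and 20.2 TPM in replicates 1 and 2, against 13.9 and 15.6 TPM in replicates 3 and 4. Slc11a2-201, in which no such site was found, had 39.4 and 52.8 TPM in replicates 1 and 2, against 25.6 and 25.8 TPM in replicates 3 and 4. Slc11a2-201 was therefore 2.53 and 2.61 times Slc11a2-205 in replicates 1 and 2, against 1.84 and 1.65 times in replicates 3 and 4. The second quantification gave 2.46 and 2.57 in replicates 1 and 2, against 1.80 and 1.62 in replicates 3 and 4. The form without the site was the more abundant in all 4 libraries by both, and the ratio was higher in replicates 1 and 2 by both.

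Tfrc, the receptor that takes up transferrin-bound iron, and Slc40a1 (ferroportin), the exporter, were next to each other in the order of levels, with the receptor above when all transcripts are counted. Tfrc had 56.4 and 47.9 TPM in replicates 1 and 2, against 52.0 and 40.9 TPM in replicates 3 and 4. Slc40a1 had 32.4 and 36.6 TPM in replicates 1 and 2, against 36.8 and 27.5 TPM in replicates 3 and 4. For both genes the pairs of libraries overlapped, and they were among the members with the narrowest spread. By TPM, Tfrc ranges were apart in other measures but not in 1 direction. The second quantification put Tfrc at 39.99 and 35.44 TPM in replicates 1 and 2, against 49.6 and 41.1 TPM in replicates 3 and 4. Coding transcripts alone had 47.0 and 36.4 TPM in replicates 1 and 2, against 24.9 and 33.1 TPM in replicates 3 and 4. From counts scaled over all genes in edgeR, Tfrc did not turn between the quantifications. Its log2 fold of replicates 1 and 2 over replicates 3 and 4 was 0.28 in the first and 0.30 in the second, neither called. Receptor RNA was 1.74, 1.31, 1.41 and 1.49 times exporter RNA in replicates 1 to 4, which is a log2 ratio of Slc40a1 over Tfrc of -0.55 ± 0.17 (SD, n = 4; exact sign-flip permutation p = 0.12).

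The make-up of Tfrc RNA differed between libraries. Tfrc-201, the full coding transcript, held 83.4% and 76.1% of Tfrc TPM in replicates 1 and 2, against 46.4% and 76.9% in replicates 3 and 4. Tfrc-204, a retained-intron transcript that shares the 3′ end with its 4 hairpins, held 13.7% and 22.4% in replicates 1 and 2, against 50.8% and 17.0% in replicates 3 and 4. Replicate 3 was the library that stood out. Over protein-coding transcripts alone Tfrc had 24.9 TPM and Slc40a1 35.6 TPM in replicate 3, so the receptor was not above the exporter there. The log2 ratio of Slc40a1 over Tfrc then averaged -0.11 ± 0.45 (SD, n = 4; exact sign-flip permutation p = 0.62), against -0.55 over all transcripts. In the second quantification Tfrc-204 held 0.568% and 2.05% in replicates 1 and 2, against 31.3% and 0.594% in replicates 3 and 4, so replicate 3 was again the highest while the size of the share depended on the program. Slc40a1-201 held 95.0% to 97.8% of Slc40a1 TPM, and transcripts with the 5′ UTR hairpin held at least 96.8%.

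**Figure D2:**
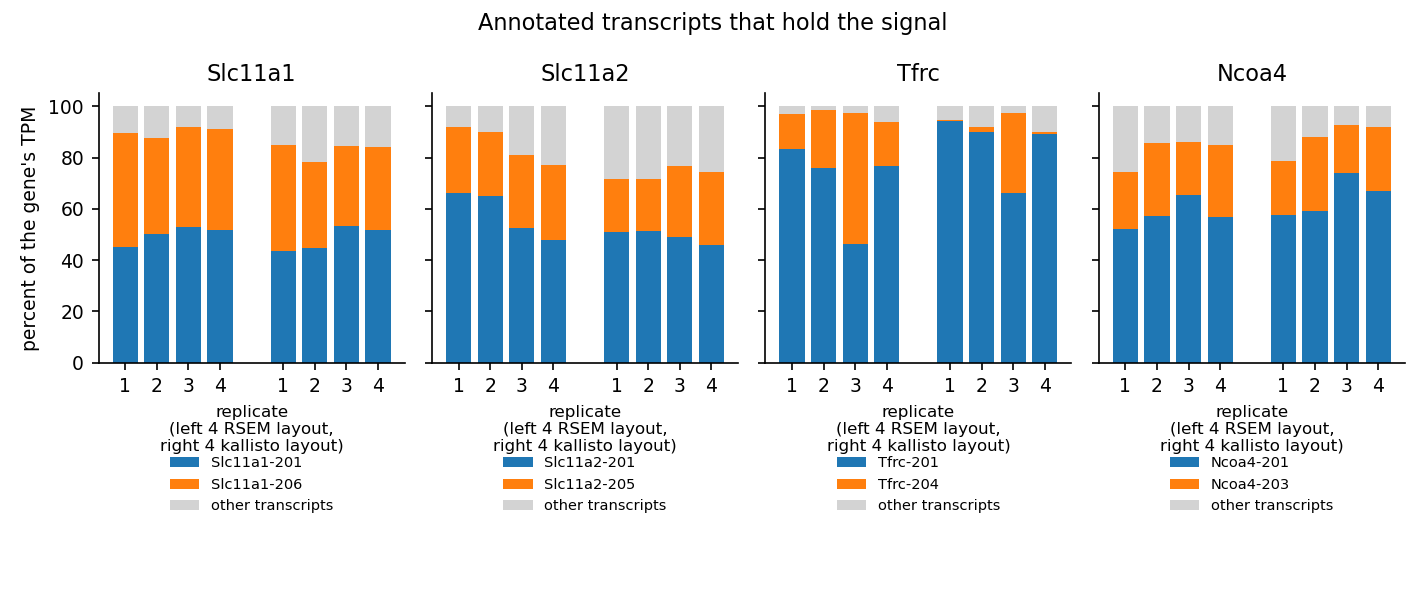
Percent of each gene's TPM held by its annotated transcripts, stacked, for Slc11a1, Slc11a2, Tfrc and Ncoa4, with the 4 replicates in the first quantification (left bars, RSEM column layout) and in the second (right bars, kallisto column layout). Coloured parts are transcripts with at least 20% in any library, grey is the rest, and Tfrc-204 reaches 50.8% and 31.3% in replicate 3.

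The messengers of the 2 iron sensors had the lowest levels of the set. Aco1 (IRP1) doubles as cytosolic aconitase when it holds an iron-sulfur cluster and had 16.3 and 20.9 TPM in replicates 1 and 2, against 21.5 and 25.4 TPM in replicates 3 and 4. Ireb2 (IRP2), which is degraded when iron is plentiful, had 18.4 and 21.4 TPM in replicates 1 and 2, against 11.9 and 13.3 TPM in replicates 3 and 4. Replicates 1 and 2 were thus low for Aco1 and high for Ireb2, with no overlap in either gene. In TPM of the second quantification Aco1 stayed apart, but Ireb2 overlapped. Ireb2 there had 13.47 and 16.35 TPM in replicates 1 and 2, against 12.34 and 13.51 TPM in replicates 3 and 4. From counts scaled over all genes in edgeR, the log2 fold between the pairs of libraries was alike in both quantifications. For Ireb2 it was 0.66 in the first and 0.69 in the second, and for Aco1 -0.35 and -0.33, none of them called. The log2 ratio of Aco1 over Ireb2 was -0.16 and -0.03 in replicates 1 and 2, against 0.81 and 0.89 in replicates 3 and 4. Over all 4 libraries it averaged 0.37 ± 0.55 (SD, n = 4; exact sign-flip permutation p = 0.50, adjusted 0.50), so no order of the 2 sensors holds across libraries. Aco1-201 carried all of the Aco1 signal.

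Hmox1, the inducible heme oxygenase that opens heme and frees its iron, had 570.1 and 416.9 TPM in replicates 1 and 2, against 448.7 and 418.8 TPM in replicates 3 and 4. Only replicate 1 was somewhat high, and the pairs of libraries overlapped. The second quantification gave 407.9 and 300.8 TPM in replicates 1 and 2, against 430.8 and 402.4 TPM in replicates 3 and 4. There replicate 3 was highest and replicate 2 lowest, and the pairs of libraries overlapped again. Hmox2, the constitutive oxygenase, had 270.4 and 228.7 TPM in replicates 1 and 2, against 369.7 and 308.2 TPM in replicates 3 and 4. Hmox1 exceeded Hmox2 in 4 of 4 libraries, by 2.11 and 1.82 times in replicates 1 and 2 and by 1.21 and 1.36 times in replicates 3 and 4. Blvra and Blvrb are the 2 genes named for biliverdin reductases, and Blvrb RNA was 2.58, 2.00, 1.96 and 2.29 times Blvra RNA in replicates 1 to 4. No activity was measured, so this does not make Blvrb the main enzyme after heme oxygenase. Hmox1 was 1.77, 1.67, 2.06 and 2.01 times Blvrb. These 3 log2 ratios averaged 0.66 ± 0.37 for Hmox1 over Hmox2, 0.90 ± 0.15 for Hmox1 over Blvrb and -1.13 ± 0.19 for Blvra over Blvrb (SD, n = 4; exact sign-flip permutation p = 0.12 each).

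**Figure D3:**
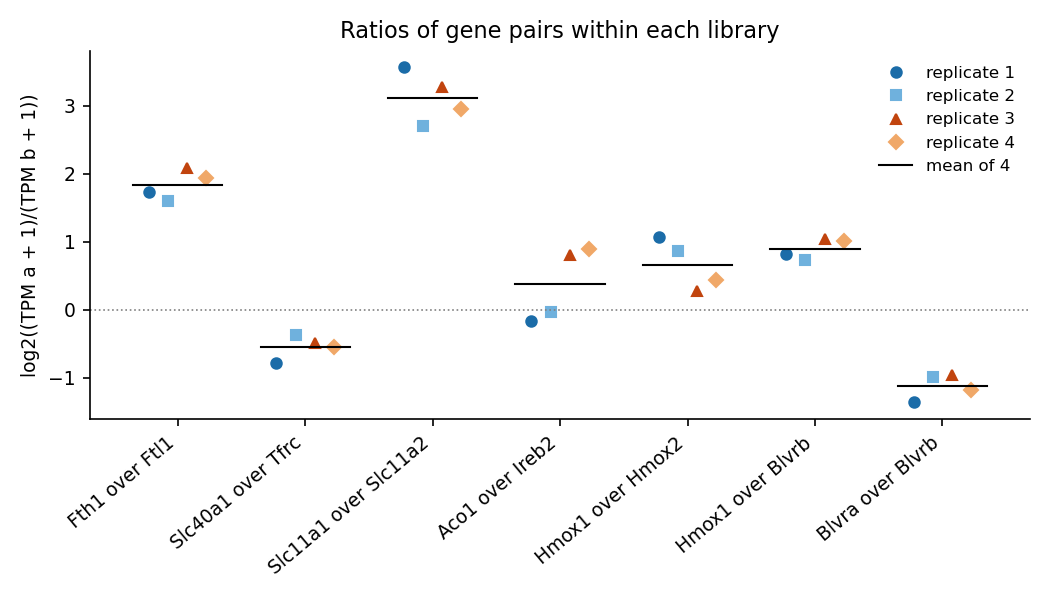
Log2 ratio of TPM plus 1 for 7 pairs of genes, 1 point per replicate with a bar at the mean of the 4 libraries. Aco1 over Ireb2 is the pair that lies on both sides of 0, at -0.16 and -0.03 in replicates 1 and 2, against 0.81 and 0.89 in replicates 3 and 4.

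Both ferritin chains had higher TPM in replicates 1 and 2, but no member passed the count test between the pairs of libraries. Of 13264 genes tested with edgeR's quasi-likelihood test, 5.5% had a Benjamini-Hochberg adjusted p below 0.05 in either direction, and 0 of 10 members did. The counts behind this were 479 genes higher and 250 lower in replicates 1 and 2. With offsets for GC content and length the called genes numbered 223 higher and 237 lower. At an unadjusted p below 0.05, 3 members differed, as did 3638 of all genes tested. Ftl1 had a log2 fold of 1.08 (SE 0.27, edgeR adjusted p = 0.069) in replicates 1 and 2 over replicates 3 and 4. Ireb2 had a log2 fold of 0.66 (SE 0.15, edgeR adjusted p = 0.058), and Slc11a2 one of 0.57 (SE 0.16, edgeR adjusted p = 0.085). For Fth1 it was 0.74 (SE 0.30, edgeR adjusted p = 0.18).

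The other 6 members had adjusted p-values between 0.21 and 0.86 by edgeR. The median log2 fold of the 10 members was 0.33, with 8 above 0. Over all 13264 genes tested the median was 0.02, with 6768 above 0. TPM ranges did not overlap in 6 of 10 members, 5 of them higher in replicates 1 and 2. Of all genes tested, 55.6% had ranges that did not overlap, and 26.9% did so with replicates 1 and 2 higher. The share over both directions, 6 of 10, was thus near that of all genes. In the second quantification 5 of 10 members had ranges apart. By TPM, Fth1 and Ftl1 were higher in replicates 1 and 2 there, and Ncoa4, Tfrc and Aco1 were lower. For Tfrc the edgeR log2 fold from the counts of that quantification was 0.30, above 0. Genes in general also had lower TPM in replicates 1 and 2 there, with median ratios to the first quantification of 0.759 and 0.775. Over coding transcripts of the first quantification 7 of 10 members had ranges apart. The share of all genes was not computed for either of these measures.

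Calls on the ferritin chains differed between tools and when 1 library was left out. DESeq2 called Fth1, Ftl1, Ireb2 and Slc11a2 higher in replicates 1 and 2, 4 of 10 members beside 15.3% of all genes in either direction, 8.75% higher and 6.52% lower. Without a filter on low counts edgeR called Ireb2 and Ftl1 higher and Ncoa4 lower, beside 11.7% of all genes in either direction, 6.16% higher and 5.51% lower. Without replicate 2 edgeR called Fth1 (adjusted p = 0.046) and Ftl1 (adjusted p = 0.031) higher and Ncoa4 (adjusted p = 0.033) lower, 3 of 10 members beside 4.55% of all genes in either direction, 3.42% higher and 1.14% lower. That fit sets replicate 1 alone against replicates 3 and 4, and the spread of the lone library is taken to equal theirs. Offsets for GC content and length brought the log2 fold to 0.47 for Fth1 and 0.62 for Ftl1, below the 0.73 of Ireb2 in that fit, and no member was called by edgeR. For Ncoa4 the log2 fold of -0.69 was -0.21 without replicate 1 and -1.48 without replicate 2.

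**Figure D4:**
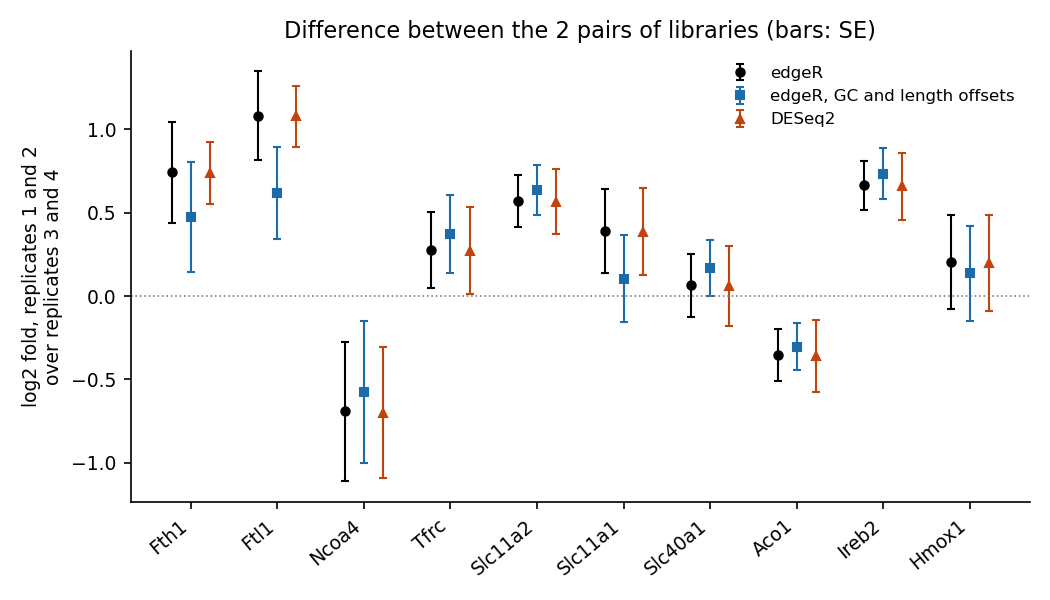
Log2 fold of replicates 1 and 2 over replicates 3 and 4 for each gene, with bars of 1 SE, from edgeR, from edgeR with offsets for GC content and length, and from DESeq2. In edgeR without offsets Ftl1 is highest at 1.08 and Ncoa4 lowest at -0.69; with offsets Ireb2 is highest at 0.73.

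Beyond the members, 62 further iron and heme genes were examined by role. By mean, 47 had at least 1 TPM, 34 at least 10 TPM and 12 at least 100 TPM, and 14 stayed below 1 TPM in all 4 libraries. The iron chaperones Pcbp2 at 445.8 ± 71.0 TPM and Pcbp1 at 149.9 ± 26.5 TPM were well expressed, whereas Pcbp3 averaged 0.44 TPM and Ftmt, mitochondrial ferritin, was at 0 (SD, n = 4). Heme and iron uptake was led by Lrp1, a receptor for the hemopexin-heme complex, at 195.4 ± 25.7 TPM, and Slc48a1, which carries heme out of the lysosome, at 170.1 ± 23.2 TPM. Cd163, the receptor for haptoglobin-hemoglobin complexes, averaged 0.10 TPM.

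Trf, which encodes transferrin, was high in replicates 1 and 3, at 193.0 TPM in replicate 1 and 104.5 TPM in replicate 2 and at 185.8 TPM in replicate 3 and 84.0 TPM in replicate 4. The summed level of 8 neutrophil markers was also high in these 2 libraries, adding up to 90.5 and 14.2 TPM in replicates 1 and 2, against 80.1 and 6.98 TPM in replicates 3 and 4. Most of that sum was S100a8 and S100a9. Camp was highest in replicate 2, Elane was high in replicate 1 alone and Ly6g was at 0 in all 4 libraries. The part of such cells in the Trf level was not tested. In the export and hormone group Cp, the ferroxidase ceruloplasmin, averaged 158.4 ± 78.4 TPM and reached 272.6 TPM in replicate 3. Lcn2, which captures bacterial siderophores, averaged 80.5 ± 51.2 TPM with its highest value of 154.3 TPM in replicate 2, and Flvcr1, a heme exporter, averaged 26.8 ± 4.2 TPM (SD, n = 4). Hamp, the hormone hepcidin that brings ferroportin down, and Heph, a ferroxidase, were at 0 in all 4 libraries.

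The regulators Nfe2l2 (NRF2), Hif1a and Bach1, the heme-sensing repressor of Hmox1, averaged 171.2 ± 54.7, 30.3 ± 7.3 and 29.5 ± 6.9 TPM (SD, n = 4). Iscu, the scaffold on which iron-sulfur clusters are built, had 93.8 ± 6.6 TPM, followed by Isca2 at 56.8 ± 3.1 TPM and Hscb at 32.7 ± 8.5 TPM (SD, n = 4). Heme synthesis was represented by Alas1, the first enzyme in non-erythroid cells, at 144.6 ± 13.8 TPM, and by the last enzyme, Fech, at 36.6 ± 18.0 TPM (SD, n = 4). Alas2, the erythroid form, was at 0 in all 4 libraries.

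Of these 62 genes 52 could be tested between the pairs of libraries. In replicates 1 and 2, 2 were higher, beside 3.61% of all genes, and 0 were lower, beside 1.88%. Glrx5, which passes on iron-sulfur clusters, had 13.8 and 11.2 TPM in replicates 1 and 2, against 5.08 and 5.18 TPM in replicates 3 and 4, a log2 fold of 1.20 (SE 0.22, edgeR adjusted p = 0.042). Tmem14c, needed for the import of a heme precursor into mitochondria, had 141.6 and 152.6 TPM in replicates 1 and 2, against 87.9 and 85.0 TPM in replicates 3 and 4, a log2 fold of 0.77 (SE 0.15, edgeR adjusted p = 0.048). Both lost the call with GC content and length offsets (edgeR adjusted p = 0.055 for Glrx5 and 0.086 for Tmem14c), with library totals as the scaling, and without replicate 1, 3 or 4. Tmem14c lost it without replicate 2 as well. In the fits in which the call was lost the log2 fold was 1.00 to 1.22 for Glrx5 and 0.52 to 0.85 for Tmem14c.

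**Figure D5:**
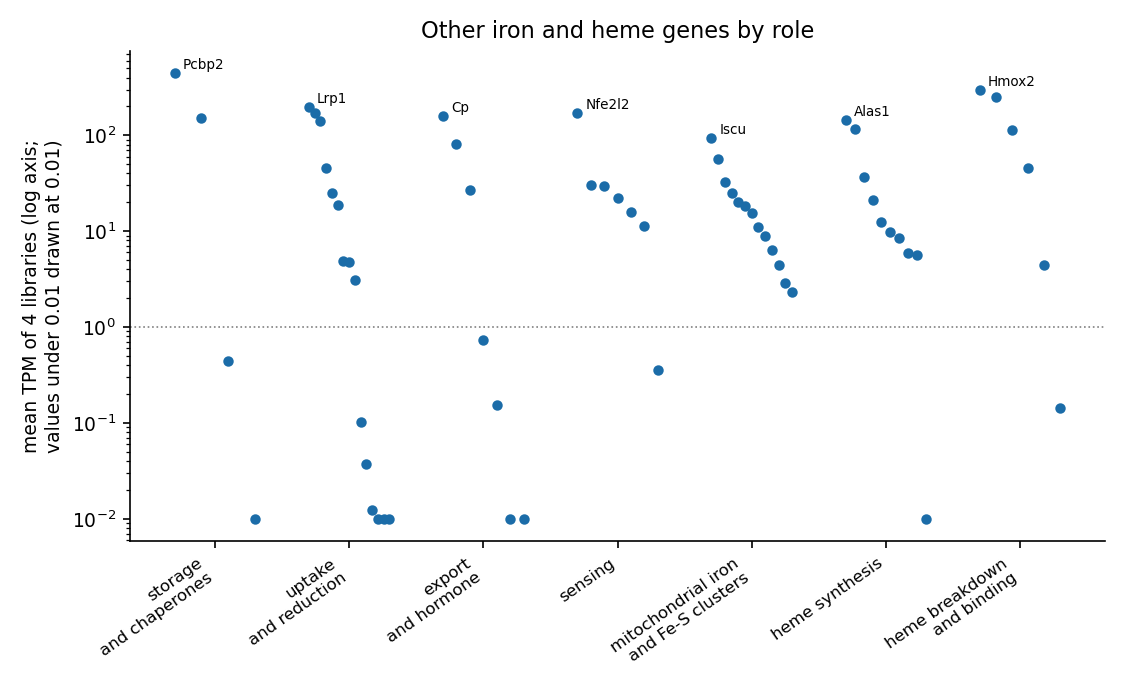
Mean TPM over the 4 libraries on a log axis of the 62 further iron and heme genes, 1 point per gene, grouped by role with the highest gene of each role named. The dotted line marks 1 TPM; Pcbp2 is highest at 445.8 TPM, and values under 0.01 are drawn at the bottom.

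Genes whose centred log2 levels lay nearest to a ferritin chain were found among 5856 protein-coding genes with at least 10 TPM in every library, as a description over 4 libraries. Nearest to Fth1 were Minpp1, Tmem14c and Cox8a, at root mean square distances of 0.005, 0.024 and 0.024, beside a median of 0.44 over all genes. Minpp1, a phosphatase of inositol phosphates, had 31.1 and 35.2 TPM in replicates 1 and 2, against 19.6 and 19.2 TPM in replicates 3 and 4. Nearest to Ftl1 were Mrpl14, Rps14 and Ier5, at 0.020, 0.028 and 0.039, beside a median of 0.60. Rps14, a ribosomal protein gene, had 549.9 and 691.2 TPM in replicates 1 and 2, against 269.9 and 292.0 TPM in replicates 3 and 4. The 6 were chosen for their likeness to the chains over these libraries, so their shared split is a description. The distance between Fth1 and Ftl1 was 0.18, and among members Fth1 lay nearest to Ireb2, at 0.09.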

How the data were processed

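PolyA-selected RNA of 4 libraries in 1 group was analysed from deposited tables. Per the deposited notes the authors made them on mm10 with GENCODE M21; the sources used here give no program, so RSEM and kallisto below refer only to column layouts. The deposited gene and transcript tables hold expected counts, not normalized, and TPM, scaled within each library. The other deposited transcript tables hold estimated counts and TPM and are called the second quantification. Spike-in and tRNA rows, at most 0.128% of counts, were left out. A count of 0 allows 3 counts, or 0.0525 to 0.117 CPM, for counting error only.

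Levels are TPM of the first quantification. Pairs are log2 ratios with a pseudocount of 1, tested by exact sign-flip permutation. Expected counts were rounded and tested across all genes by edgeR's quasi-likelihood test (version 4.0.16, R 4.3.3), replicates 1 and 2 over 3 and 4, after TMM scaling and a filterByExpr minimum of 10 counts, with 0.05 as the Benjamini-Hochberg threshold. DESeq2 1.42.0 was an alternative. The edgeR script was tested on simulated counts. Other steps used scipy 1.17.1, numpy 2.4.6, pandas 2.3.3 and, for figures, matplotlib 3.10.9 under Python 3.11.15.

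Members, lists and tests were chosen with earlier results of these data known. Named genes are all members, the partners Hmox2, Blvra and Blvrb, in each other role the 3 genes of highest mean TPM, all called genes and those below 1 TPM by name or count, ferritin copies of at least 1 TPM, markers, the 3 genes nearest to each ferritin chain, and transcripts with at least 20% of a member's TPM. Gm10252 and Cd163 were singled out after their values were seen. One marker gene is not reported here. Sequences are from GENCODE M21 transcripts.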

Additional observations from a re-analysis of the deposited data

Results flagged for a closer look

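Among 85 sets of 4 values, 3 had 1 library far from the others by Dixon's criterion, and chance alone marks about 1 in 20 such sets. Flvcr1, the heme exporter, had its high value of 33.05 TPM in replicate 2, with 24.6 TPM in replicate 1 and 24.1 and 25.5 TPM in replicates 3 and 4. The other 2 rest on few reads. Hba-a2, an alpha globin gene, had 0.06 TPM in replicate 3 from 0.5 expected counts that it shares with its copy Hba-a1, and 0 elsewhere. Elane, made by neutrophil precursors, had 0.48 TPM in replicate 1 from 6 counts, and 0 in replicate 2, with 1 count in each of replicates 3 and 4.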

How the results depend on the processing

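No paired analysis was possible because the series has 1 group. No gene pair's mean ratio changed sign in any alternative run, but that of Slc40a1 over Tfrc was -0.11 ± 0.45 over coding transcripts (SD, n = 4; exact sign-flip permutation p = 0.62), against -0.55 ± 0.17 over all. Of the members' log2 folds, none of them called, 3 changed sign when 1 replicate was left out, with ranges of -0.030 to 0.52 for Tfrc, -0.14 to 0.27 for Slc40a1 and -0.23 to 0.52 for Hmox1. The 729 genes called between replicates 1 and 2 and replicates 3 and 4 became 360 with library totals, 2569 with no filter on low counts, 1907 with DESeq2, 460 with GC and length offsets and 51 to 640 when 1 replicate was left out (243 without replicate 1, 86 without replicate 3, 51 without replicate 4). Members called, 0 in the report, were 3 with no filter and 4 with DESeq2, and 0 to 3 when 1 replicate was left out. Of the 62 others, 52 were tested in the report and 2 called, beside 5.5% of all genes. With no filter 56 were tested and 6 called, beside 11.7% of all genes, so that rise went with more calls in general. Library totals and the offsets each gave 0. The cause of these changes was not tested, and a fit that leaves out a replicate also has fewer samples. Mean levels moved by more than 1 SD for Tfrc (41.5 TPM in the second quantification and 35.4 TPM over coding transcripts), Slc11a1 (267.5 TPM over coding transcripts and 266.1 TPM over Slc11a1-201 alone) and Hmox1 (385.5 TPM in the second quantification). Over the 6015 genes of at least 10 TPM, the median ratio of the second quantification to the first was 0.759 and 0.775 in replicates 1 and 2 and 1.01 in replicates 3 and 4, so levels of replicates 1 and 2 depend on the program for genes in general. Differences between the pairs of libraries cannot be told apart from whatever separates their read files.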
